A study of Mus musculus with 69 samples.

Results

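Ccr1, Ccr2, Cx3cr1 and Cxcr4 are the 4 chemokine receptor genes described here in mouse bone marrow-derived macrophages (BMDMs) treated with interleukin-4 (IL-4). They were taken by symbol from expression tables that list 24537 genes. The rule used no values, but the receptors were chosen with earlier results of these data known. All 4 passed the filter on low expression in every table tested. BMDMs were grown from bone marrow for 7 days in M-CSF, the growth factor of the macrophage lineage, and were stimulated with IL-4 at 20 ng/ml. The study used female mice of 8 to 12 weeks. RNA from 69 libraries was sequenced. The first experiment held 29 libraries from 5 inbred strains. These were the wild-derived strains SPRET/EiJ (SPRET) and PWK/PhJ (PWK) and the laboratory strains C57BL/6J (C57), NOD/ShiLtJ (NOD) and BALB/cJ (BALB). Each strain was sampled untreated (basal) and 24 hours into IL-4 treatment, with 3 libraries a group except PWK basal, which had 2. A second experiment of 16 libraries followed C57 and SPRET BMDMs at basal and at 1, 6 and 24 hours of IL-4, with 2 libraries a group. The third compared Egr2MKO with Egr2WT BMDMs at the same times, again with 2 libraries a group. Both genotypes carried loxP-flanked Egr2 alleles (Egr2 fl/fl), and Egr2MKO also carried LyzM-Cre, a recombinase driven in myeloid cells, so that the deletion is myeloid and need not be complete. The strain background of these mice is not given in the sources used here. The last 8 libraries came from F1 offspring of C57 with NOD or SPRET mice, either untreated or treated for 24 hours, 2 libraries a condition, with reads split by parental allele.

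Chemokine receptors are seven-pass membrane proteins that couple to Gi proteins and steer leukocytes along gradients of chemokines. Ccr1 binds inflammatory CC chemokines such as Ccl3, Ccl5, Ccl6, Ccl7 and Ccl9. Ccr2 binds Ccl2, Ccl7 and Ccl12 and is needed for Ly6C-high monocytes to leave the bone marrow, whereas Cx3cr1, the receptor of Cx3cl1 (fractalkine), marks patrolling monocytes, microglia and many tissue macrophages. Cxcr4 binds Cxcl12 and retains haematopoietic cells in the marrow, and it also binds the cytokine Mif. IL-4 acts through the transcription factor STAT6 to drive alternative activation, and Egr2 is a zinc finger factor induced by IL-4 in macrophages.

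In the mm10 assembly, Ccr1 lies on the minus strand at chr9:123962126-123968692 and Ccr2 on the plus strand at chr9:124102183-124109140, 133 kb apart in a cluster that also holds Ccr1l1 and Ccr3. Cx3cr1 is on the minus strand at chr9:120048683-120068296, 3.89 Mb from Ccr1, and Cxcr4 is on the minus strand at chr1:128588199-128592299. The closest paralogs of Ccr1 in the cluster were low, with Ccr1l1 at most 0.518 TPM and Ccr3 at most 2.09 TPM in any library, and how reads matching more than 1 of them were handled is not given in the sources used here. The promoters of Ccr1 and Cxcr4 are shown because these receptors gave the only changes of more than 2-fold between Egr2MKO and Egr2WT among the 4. Each window runs from 250 bases before to 50 bases after the annotated start and spans the 5′ end of the first exon, from RefSeq on GRCm38.p6 (the same coordinates as mm10), printed 5′ to 3′ on the strand of the gene. In Ccr1 the capitals mark the PU.1 core GAGGAA, 129 to 124 bases before the start, and the EGR core GTGGGCG, read on the opposite strand 23 to 17 bases before the start. In Cxcr4 they mark TATAAA, matched on both strands in overlapping positions 32 to 25 bases before the start. Only exact letters were searched, so sites of another spelling, including any EGR site in Cxcr4, are left unmarked.
Ccr1 promoter, chr9:123968643-123968942, minus strand: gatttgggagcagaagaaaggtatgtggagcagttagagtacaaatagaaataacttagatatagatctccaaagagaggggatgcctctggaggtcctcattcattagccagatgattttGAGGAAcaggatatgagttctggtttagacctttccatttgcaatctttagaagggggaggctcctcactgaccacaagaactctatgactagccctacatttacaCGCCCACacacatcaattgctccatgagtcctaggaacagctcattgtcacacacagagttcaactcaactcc
Cxcr4 promoter, chr1:128592250-128592549, minus strand: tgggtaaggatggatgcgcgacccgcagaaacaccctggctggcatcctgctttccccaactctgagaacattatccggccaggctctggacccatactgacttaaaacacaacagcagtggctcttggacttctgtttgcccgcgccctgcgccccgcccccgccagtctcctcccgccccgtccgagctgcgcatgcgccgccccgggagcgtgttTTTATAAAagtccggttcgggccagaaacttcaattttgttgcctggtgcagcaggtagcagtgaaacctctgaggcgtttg
Of 32851 RefSeq promoter windows of this length, searched on both strands, 28.3% held GAGGAA, 7.97% GTGGGCG and 13.6% TATAAA. The STAT6 motif TTCNNNNGAA was found in 6.95% of windows and in none of the 4 receptor promoters, and those of Ccr2 and Cx3cr1 held none of the 4 motifs. The promoters also differed in composition. GC content was 44% in Ccr1, 38% in Ccr2, 54.3% in Cx3cr1 and 59.3% in Cxcr4, against a median of 52.7%, and CG dinucleotides numbered 1, 1, 5 and 20, against a median of 7. A match of letters describes a sequence and is not a measured binding site.

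Expression was given as TPM, a transcript abundance scaled to gene length and library size. Library depth ran from 4.69 to 32.9 M tags, and replicates correlated with r of 0.971 to 0.996 across genes. The summed level of 8 macrophage markers was 3959 to 6452 TPM in every library, with none of the 8 at 0, whereas 5 red cell markers summed to at most 0.483 TPM, 8 T and B cell markers to at most 6.06, 6 dendritic cell markers to at most 8.85 and 5 mast cell and basophil markers to at most 22.6. The 6 fibroblast and stromal markers in PWK summed to 203 to 211 TPM at basal and 105 to 112 after IL-4, against at most 25.9 in all libraries of other strains. Not all of them were present in PWK. Col3a1 was listed at 0 in all PWK libraries, and Col1a2 at 0 in both basal ones. Neutrophil and precursor markers summed to up to 601 TPM and monocyte genes to up to 145 TPM, and both are given beside the results. Basal levels did not match between the tables of the experiments, although TPM is scaled within each library, and the cause was not tested. C57 BMDMs had 15.5 TPM of Ccr1 in the strain experiment and 55.3 in the time course, and SPRET BMDMs had 0.277 against 5.63 TPM of Ccr2 and 3.4 against 29.5 TPM of Cx3cr1. Cxcr4 was closer, at 145 and 154 TPM in C57 and 270 and 300 TPM in SPRET. Each comparison below was therefore made within a table, by limma on log2(TPM + 1). A gene passed at an adjusted p under 0.05 and was called where the change was also more than 2-fold. All log2 changes are on the log2(TPM + 1) scale, which understates the change of genes near 0.

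To ask how the receptors differed among strains before stimulation, basal levels were compared among the 5 strains. Cxcr4 was the most abundant of the 4 in every strain, ranking above 92.3% to 97.3% of tested genes over the 10 groups, and Ccr2 was low throughout, at the 3.07 to 31.1 percentile. NOD BMDMs were low in Ccr1, Ccr2 and Cx3cr1, all 3 more than 2-fold below C57, while their Cxcr4 differed from C57 by 0.08 (adjusted p = 0.28). PWK BMDMs stood out for Cx3cr1 and SPRET BMDMs combined the most Cxcr4 with little Ccr1 and Ccr2. In the time course the order of SPRET and C57 was the opposite for basal Ccr2 and Cx3cr1. For these genes a difference of strain cannot be told apart from 1 of culture or experiment. Of the 4 receptors, 3 were called against C57 in NOD, where 16.9% of all 11907 genes tested were called, 2 in SPRET (18.1% of genes), 1 in PWK (13.3%) and 0 in BALB (4.81%). The median of all genes was -0.30 in NOD and -0.16 in PWK against C57, and removing that shift by median-ratio scaling put NOD Cxcr4 above C57 by 0.47 (adjusted p = 1.8e-08).

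Basal Ccr1 was 14.4, 16.0 and 16.1 TPM in the 3 C57 libraries and 14.3 and 16.8 TPM in PWK. It was 8.71 to 9.93 TPM in BALB, 4.54 to 5.11 in SPRET and 4.03 to 4.75 in NOD. The libraries of C57 and PWK overlapped, as did those of SPRET and NOD, and BALB lay between without overlap. Against C57 the log2 difference was -0.69 (SE 0.08, adjusted p = 2.5e-07) in BALB, -1.50 (adjusted p = 3.5e-14) in SPRET and -1.61 (adjusted p = 1.1e-14) in NOD. PWK differed from C57 by 0.00 (95% interval -0.19 to 0.19) and SPRET from NOD by 0.11 (adjusted p = 0.24), so neither pair of neighbours was separated.

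Basal Ccr2 reached 2.23 to 2.97 TPM in C57, 2.79 and 2.82 in PWK and 1.43 to 1.56 in BALB, and was 0.257 to 0.29 TPM in SPRET and 0.047 to 0.115 in NOD. Every neighbouring pair in this order passed the test except C57 and PWK, with a difference of 0.06 (adjusted p = 0.62), or 0.29 (adjusted p = 0.026) with quantile normalization. Cx3cr1 followed another order. Its basal level was 14.3 and 16.2 TPM in PWK, 4.88 to 5.04 in C57, 3.28 to 3.64 in SPRET, 2.31 to 2.56 in BALB and 0.339 to 0.688 in NOD, with no overlap between any strains. PWK exceeded C57 by 1.44 log2 (SE 0.10, adjusted p = 8.2e-12), NOD differed from C57 by -2.02 (adjusted p = 8e-16), and all 4 neighbouring pairs passed. The difference of SPRET from C57, -0.44 (adjusted p = 0.00016), did not pass with a pseudocount of 0.1 TPM (-0.54, adjusted p = 0.072). Basal Cxcr4 was 259 to 291 TPM in SPRET, 194 to 209 in BALB, 181 and 185 in PWK, 147 to 165 in NOD and 134 to 151 in C57. SPRET exceeded C57 by 0.89 (adjusted p = 2.6e-12), BALB by 0.46 (adjusted p = 1.4e-06) and PWK by 0.34 (adjusted p = 0.00018). The neighbours BALB and PWK (adjusted p = 0.13) and NOD and C57 (adjusted p = 0.28) were not separated.

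Monocyte genes moved with Ccr2 and Cx3cr1 among strains in part. The 10 monocyte genes summed to 49.3 to 50.3 TPM in basal C57, 20.2 to 23.8 in BALB, 8.11 to 10.3 in NOD and 108 to 109 in PWK, and to 123 to 131 in SPRET, which had little Ccr2. The 8 neutrophil and precursor markers summed to 167 to 189 TPM in C57, 86.5 to 90.2 in BALB, 45.4 to 58 in NOD, 552 to 558 in PWK and 344 to 404 in SPRET. Single genes did not all follow the sums of their lists. Ly6g, a neutrophil gene of the second list, was at most 0.276 TPM in any library and listed at 0 in all basal libraries of C57, NOD and SPRET. The sums of that list therefore came from its other genes. Ly6c2, which marks Ly6C-high monocytes, was 22.7 to 25.3 TPM in basal C57 and at most 2 TPM in basal libraries of the other strains. The sum of the monocyte genes was nevertheless higher in PWK and SPRET than in C57. The part of these sums in the receptor levels was not tested, and in bulk RNA fewer cells of a type and less RNA per cell cannot be told apart.

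**Figure D1:**
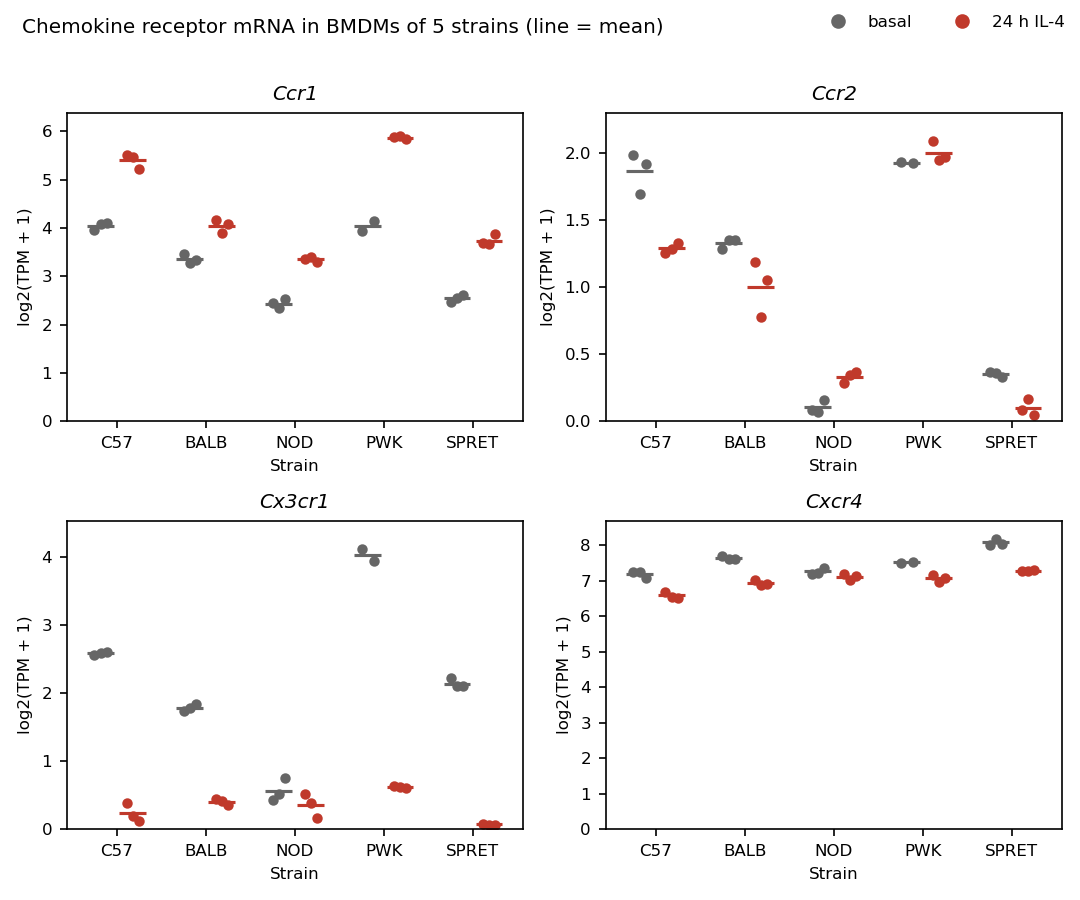
Level of each receptor in every library of the 5 strains as log2(TPM + 1), with a separate scale for each gene, untreated (grey) and at 24 hours of IL-4 (red). Points are libraries and horizontal lines are group means. Ccr1 was higher after IL-4 in every strain without overlap, Cx3cr1 was under 1 TPM in all IL-4 libraries, and Cxcr4 stayed above 90 TPM in all libraries.

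The 24-hour response was then compared within and between strains. Ccr1 rose in all 5 strains, Cx3cr1 fell in 4, Cxcr4 fell modestly in the same 4, and Ccr2 fell in C57, BALB and SPRET. NOD was the strain without a passing change in Cx3cr1 or Cxcr4. The receptors called were Ccr1 and Cx3cr1 in C57, PWK and SPRET, Cx3cr1 alone in BALB, and none in NOD, giving 2, 2, 2, 1 and 0 of 4. The share of all genes called was 3.80% in C57, 2.08% in PWK, 3.94% in SPRET, 2.08% in BALB and 1.19% in NOD. The median change of all genes was -0.11 in BALB, 0.12 in NOD and 0.11 in SPRET. With median-ratio scaling the split of higher and lower calls moved from 87 and 55 to 62 and 88 in NOD, and from 276 and 193 to 224 and 242 in SPRET.

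Ccr1 went to 36.1, 43.5 and 44.4 TPM after IL-4 in C57 and to 56.1, 57.9 and 58.6 TPM in PWK. It reached 13.9 to 17.0 TPM in BALB, 11.7 to 13.6 in SPRET and 8.86 to 9.62 in NOD. In each strain all IL-4 libraries lay above all basal libraries. The rise was 1.83 log2 (SE 0.09, adjusted p = 1e-13) in PWK, a 3.7-fold change of the mean TPM, 1.35 (SE 0.08, adjusted p = 1.4e-12) or 2.66-fold in C57, 1.20 (adjusted p = 1.3e-11) in SPRET, 0.92 (adjusted p = 7e-09) in NOD and 0.70 (adjusted p = 4.5e-07) in BALB. The BALB response minus that of C57 was -0.66 (SE 0.12, adjusted p = 0.00038) and the NOD response minus that of C57 was -0.43 (adjusted p = 0.0079). PWK exceeded C57 by 0.47 (adjusted p = 0.0087), but this difference was 0.31 (adjusted p = 0.068) with median-ratio scaling and 0.37 (adjusted p = 0.076) without basal PWK replicate 1. The strains with equal basal Ccr1, C57 and PWK, thus ended apart after IL-4, with PWK higher by 0.47 in level (adjusted p = 3e-05). NOD and SPRET had the lowest Ccr1 after IL-4, at -2.04 and -1.66 against C57.

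Cx3cr1 after IL-4 was 0.09 to 0.304 TPM in C57, 0.277 to 0.365 in BALB, 0.118 to 0.434 in NOD, 0.522 to 0.554 in PWK and 0.044 to 0.055 in SPRET. The wide basal range among strains had narrowed to values all under 1 TPM, where this scale resolves little. The log2 change was -3.40 (SE 0.10) in PWK, -2.35 (SE 0.09) in C57, -2.07 in SPRET and -1.38 in BALB, with adjusted p between 2.1e-18 and 1.3e-11. In NOD the basal and IL-4 libraries overlapped and the change was -0.21 (adjusted p = 0.083), which passed under median-ratio scaling (-0.29, adjusted p = 0.023), without IL-4 replicate 1 (adjusted p = 0.029) and without basal replicate 1 (adjusted p = 0.043). The NOD response was less negative than that of C57 by 2.14 (SE 0.13, adjusted p = 5.9e-12) and the BALB response by 0.97 (adjusted p = 8.4e-06), whereas PWK differed from C57 by -1.05 (adjusted p = 3.7e-06). The PWK difference was -0.33 (adjusted p = 0.60) with a pseudocount of 0.1 TPM. A fall on this scale cannot exceed the basal log2(TPM + 1), and NOD began at 0.339 to 0.688 TPM. These differences in response were therefore in part set by the basal levels.

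Ccr2 went to 1.39 to 1.51 TPM in C57, 0.71 to 1.27 in BALB and 0.032 to 0.123 in SPRET, with every IL-4 library below the basal libraries of its strain. The log2 changes were -0.58 (SE 0.09, adjusted p = 1e-05) in C57, -0.32 (adjusted p = 0.0065) in BALB and -0.26 (adjusted p = 0.022) in SPRET. The BALB change was -0.21 (adjusted p = 0.082) without IL-4 replicate 2, and that of SPRET did not pass without IL-4 replicate 1 or 3 or basal replicate 1 or 2 (adjusted p = 0.054 to 0.078). PWK Ccr2 stayed at 2.85 to 3.25 TPM, a change of 0.07 (adjusted p = 0.65). In NOD it was 0.215 to 0.288 TPM, and the difference of 0.23 from basal passed narrowly (adjusted p = 0.049). It did not pass with median-ratio scaling (adjusted p = 0.052) or without any 1 of the 6 NOD libraries (adjusted p = 0.059 to 0.12). Responses exceeded that of C57 by 0.81 (adjusted p = 3e-05) in NOD and 0.65 (adjusted p = 0.00092) in PWK. Basal Ccr2 of 0.047 to 0.115 TPM in NOD and 0.257 to 0.29 TPM in SPRET left little room to fall on this scale. A difference of these 2 strains from the C57 response was therefore in part set by the basal level.

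Cxcr4 went to 91.0 to 102 TPM in C57, 117 to 129 in BALB, 125 to 142 in PWK and 153 to 158 in SPRET, each below its basal libraries. It changed by -0.80 log2 (SE 0.06, adjusted p = 8.7e-11) in SPRET, -0.71 (adjusted p = 1.8e-09) in BALB, -0.60 (adjusted p = 1.8e-08) in C57 and -0.46 (adjusted p = 1.7e-05) in PWK. NOD Cxcr4 was 130 to 145 TPM after IL-4 against 147 to 165 at basal, a change of -0.15 (adjusted p = 0.066) that became -0.34 (adjusted p = 2.8e-05) with median-ratio scaling and -0.18 (adjusted p = 0.049) without IL-4 replicate 1. The NOD response differed from that of C57 by 0.45 (SE 0.09, adjusted p = 0.00038). After IL-4 Cxcr4 was lowest in C57, and all 4 other strains exceeded it by 0.35 to 0.70. In these comparisons no SPRET response of any receptor differed from C57 at the threshold, with differences of -0.16 for Ccr1 (95% interval -0.40 to 0.09), 0.32 for Ccr2 (adjusted p = 0.051), 0.28 for Cx3cr1 (adjusted p = 0.10) and -0.20 for Cxcr4 (adjusted p = 0.09). With median-ratio scaling the Ccr1 and Cxcr4 differences were -0.35 (adjusted p = 0.021) and -0.39 (adjusted p = 0.00023). That of Ccr2 passed without basal C57 replicate 2 (0.41, adjusted p = 0.014) and that of Cx3cr1 without IL-4 C57 replicate 1 (0.35, adjusted p = 0.042).

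**Figure D2:**
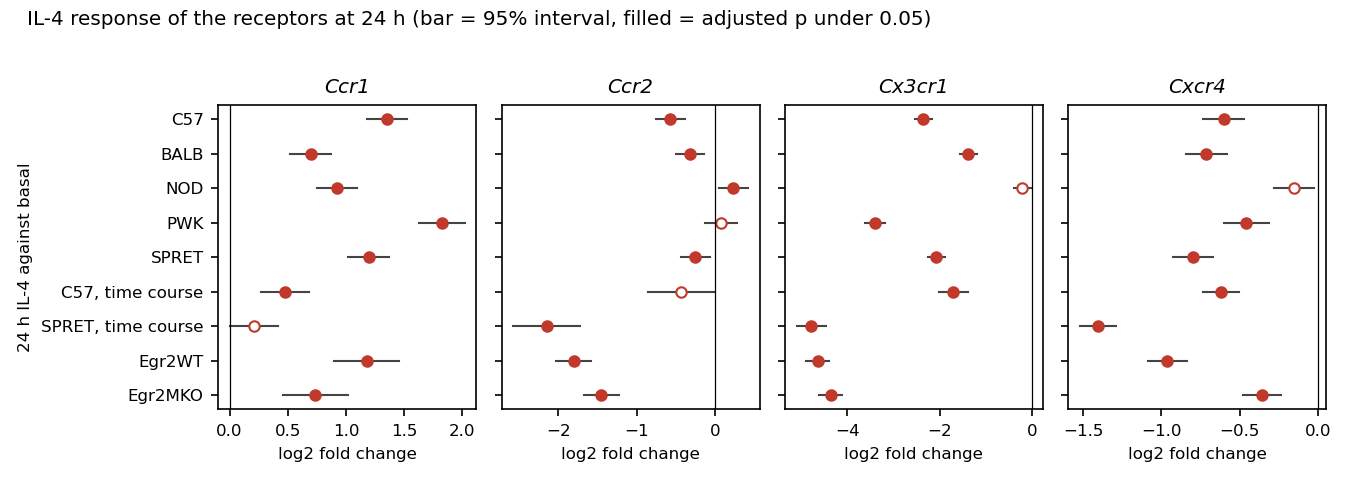
Change of each receptor at 24 hours of IL-4 against basal, as the limma log2 change of TPM + 1 with its 95% interval, in the 5 strains, in C57 and SPRET of the time course and in both Egr2 genotypes, with filled points where the adjusted p was under 0.05. Ccr1 lay above 0 in every strain, from 0.70 in BALB to 1.83 in PWK, and Cx3cr1 ranged among strains from -3.40 in PWK to -0.21 in NOD.

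Summed monocyte genes were also lower after IL-4 where Cx3cr1 fell, at 18 to 23.1 TPM in C57, 8.13 to 10.7 in BALB, 42.6 to 51.5 in PWK and 6.34 to 7.07 in SPRET, and were 5.84 to 9.8 TPM in NOD. Neutrophil and precursor markers were 59.6 to 78.5 TPM after IL-4 in C57, 37.9 to 41.5 in BALB, 22.2 to 24.4 in NOD and 249 to 274 in SPRET, each below basal, and 549 to 601 in PWK, around its basal sum. In C57, where 3.80% of all genes were called in either direction, 3 of the 7 monocyte genes tested were called lower. They were Treml4 (-1.90), Ly6c2 (-1.46) and F13a1 (-1.06), and the list median was -0.94 against -0.04 for all genes. Of the same 7 genes, those called higher and lower were 0 and 1 in BALB, 0 and 0 in NOD, 1 and 1 in PWK and 0 and 2 in SPRET. The shares of all genes called there were 2.08%, 1.19%, 2.08% and 3.94%. The list medians were -0.68, -0.15, -0.22 and -0.33, against -0.11, 0.12, 0.08 and 0.11 for all genes. The part of these genes in the fall of Cx3cr1 was not tested.

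The time course asked when the receptors moved. Cxcr4 fell first, within 1 hour in both strains, and Cx3cr1 was under 1 TPM by 6 hours, while Ccr1 changed little and in different ways in C57 and SPRET. In C57 BMDMs 1, 2 and 1 of the 4 receptors were called at 1, 6 and 24 hours, against 0.877%, 2.13% and 5.76% of the 12088 genes tested. In SPRET the counts were 1, 2 and 3, against 1.89%, 4.57% and 5.62%.

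Cxcr4 was 152 and 156 TPM at basal in C57 and went to 43.7 and 46.7 TPM at 1 hour, a 3.41-fold lower mean. It was 58.0 and 62.8 TPM at 6 hours and 98.4 and 101 TPM at 24 hours, so that it was higher again but below basal. The log2 changes were -1.75 (adjusted p = 1.3e-09), -1.34 (adjusted p = 4.1e-09) and -0.62 (adjusted p = 1.5e-06). SPRET Cxcr4 started at 294 and 306 TPM and went to 66.0 and 68.5 TPM at 1 hour, 4.47-fold lower, then to 201 and 204 TPM at 6 hours and 110 and 115 TPM at 24 hours. Between 6 and 24 hours the SPRET libraries were lower again, whereas those of C57 were higher. The SPRET changes were -2.14, -0.57 and -1.41, and the response differed from that of C57 at all 3 times, by -0.39 (adjusted p = 0.013), 0.77 (adjusted p = 3.2e-05) and -0.79 (adjusted p = 9.3e-06). The first of these did not pass without C57 replicate 1 at 1 hour or basal, SPRET replicate 1 at 1 hour or SPRET basal replicate 2 (adjusted p = 0.057 to 0.079).

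Cx3cr1 was 2.33 and 2.45 TPM at basal in C57, 1.91 and 2.06 at 1 hour, 0.189 and 0.431 at 6 hours, and 0.089 TPM in 1 library at 24 hours with the other listed at 0. In SPRET it went from 28.4 and 30.7 TPM to 21.4 and 21.7, then to 0.541 and 0.942, and finally to 0.017 and 0.219 TPM. The loss by 6 hours was thus steep in both strains from very different starting levels. The changes at 1 hour did not pass (-0.18, adjusted p = 0.67 in C57 and -0.43, adjusted p = 0.10 in SPRET), and those at 6 hours were -1.38 (adjusted p = 2.5e-05) and -4.14 (adjusted p = 6.1e-10). Ccr2 showed a decline that passed in SPRET, from 5.41 and 5.86 TPM at basal to 0.985 and 1.46 at 6 hours (-1.59, adjusted p = 4.9e-05) and 0.365 and 0.64 at 24 hours (-2.15, adjusted p = 2.7e-06). In C57 it began at 0.731 and 1 TPM and ended at 0.186 and 0.591 TPM, a difference of -0.44 (adjusted p = 0.097) that passed without C57 replicate 2 at 24 hours (-0.65, adjusted p = 0.046).

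Ccr1 in C57 was 55.3 TPM in both basal libraries, 67.9 and 71.1 at 1 hour, 62.5 and 62.8 at 6 hours and 74.3 and 80.9 TPM at 24 hours, with only the last passing (0.48, adjusted p = 0.0015). SPRET Ccr1 rose from 9.77 and 9.96 TPM to 13.3 and 14.2 at 1 hour (0.44, adjusted p = 0.01) and fell to 5.12 and 6.67 at 6 hours (-0.66, adjusted p = 0.00016). The rise at 1 hour did not pass without replicate 2 at 1 hour (adjusted p = 0.086) or at basal (adjusted p = 0.061). At 24 hours it was 10.9 and 12.3 TPM, a change of 0.21 (adjusted p = 0.11). The rise called at 24 hours in the strain experiment was therefore not called here in C57 or SPRET. That of C57 passed here at under 2-fold, and that of SPRET passed here with median-ratio scaling (0.27, adjusted p = 0.045). At 6 hours the SPRET response minus that of C57 was -0.84 (SE 0.13, adjusted p = 0.0013).

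In level, SPRET stayed below C57 in Ccr1 at each time, with differences of -2.37, -2.26, -3.22 and -2.64 from basal to 24 hours. It exceeded C57 in Cxcr4 by 0.96, 0.56, 1.73 and 0.17. The differences of Ccr2 were 1.83, 1.31, 0.23 (adjusted p = 0.32) and 0.12 (adjusted p = 0.6), and those of Cx3cr1 were 3.17, 2.92, 0.41 and 0.09 (adjusted p = 0.6). Of these, 0.17 for Cxcr4 did not pass without C57 replicate 2 (adjusted p = 0.073) or SPRET replicate 1 (adjusted p = 0.089) at 24 hours, and 0.41 for Cx3cr1 did not pass without C57 replicate 2 (adjusted p = 0.19) or SPRET replicate 1 (adjusted p = 0.23) at 6 hours. The receptors called numbered 3, 3, 2 and 1 of 4, against 18.8%, 19.5%, 18.6% and 20.5% of all genes. Ccr2 and Cx3cr1 were thus higher in SPRET than in C57 in this experiment and lower in the strain experiment. Marker sums moved between the experiments as well. Neutrophil and precursor markers were 332 to 376 TPM in basal C57 and 68.6 to 76 in SPRET here, the reverse of their order in the strain experiment, and monocyte genes were 28.8 to 28.9 TPM in C57 and 109 to 125 in SPRET, dropping to 19.1 and to 23.1 to 26.8 TPM at 24 hours. Their part in the difference between experiments was not tested.

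**Figure D3:**
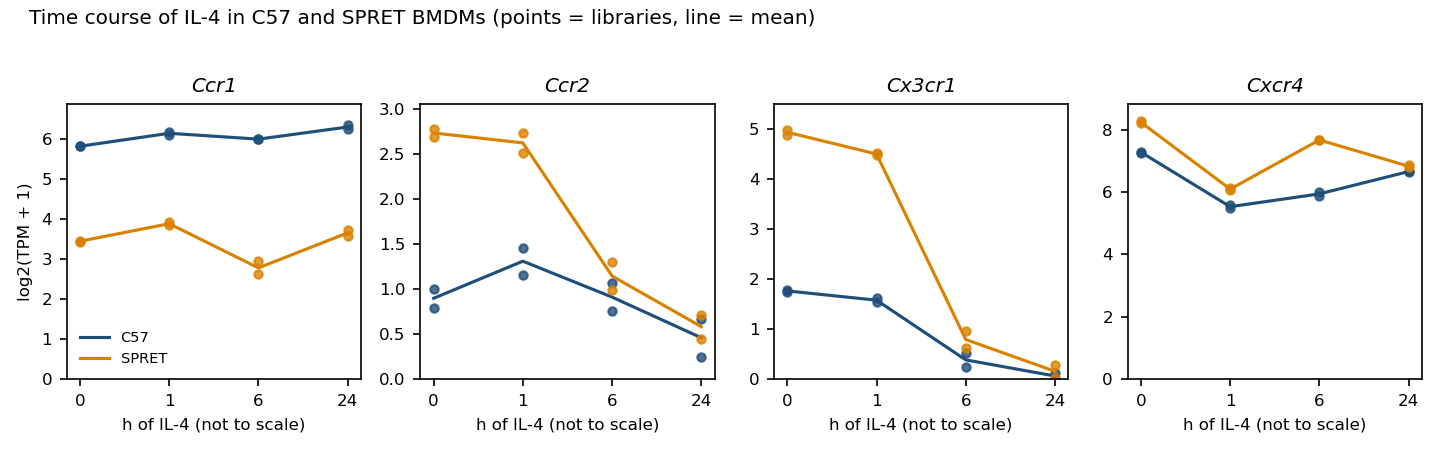
Level of each receptor as log2(TPM + 1) at basal (0) and at 1, 6 and 24 hours of IL-4, with time not to scale, in C57 (blue) and SPRET (orange) BMDMs. Points are libraries and lines join the group means. Cxcr4 was lowest at 1 hour in both strains, and SPRET Cxcr4 was 201 and 204 TPM at 6 hours and lower again at 24 hours.

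To ask whether the receptors depended on Egr2, Egr2MKO and Egr2WT BMDMs were compared. Only Egr2MKO carried LyzM-Cre, so an effect of Cre itself cannot be told apart from loss of Egr2. Egr2 itself was 21.3 and 23.6 TPM in basal Egr2WT and 0.854 and 0.859 TPM in Egr2MKO. At 24 hours it was 99.5 and 101 against 4.72 and 7.05 TPM, and its differences over the 4 times were -3.66, -4.08, -4.18 and -3.90. Every library matched its label, and some transcript remained in Egr2MKO. Ccr1 was lower and Cxcr4 higher in Egr2MKO at all 4 times, including basal. Ccr2 was lower at basal, 1 and 6 hours by less than 2-fold, and Cx3cr1 was lower at basal and 1 hour. Receptors called were 2, 1, 2 and 2 of 4 at basal, 1, 6 and 24 hours, against 0.853%, 1.06%, 2.30% and 4.55% of 12079 genes. The median change of all genes at 24 hours was 0.12, and median-ratio scaling moved the calls at that time from 292 higher and 258 lower to 221 and 328.

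Ccr1 was 27.4 and 32.1 TPM in basal Egr2WT and 8.13 and 8.91 in basal Egr2MKO. It was 31.3 and 33.4 against 9.18 and 9.42 TPM at 1 hour, and 24.3 and 25.8 against 4.66 and 6.6 TPM at 6 hours. At 24 hours it was 64.4 and 72.6 against 14.0 and 15.8 TPM. The genotypes did not overlap at any time, and the highest Egr2MKO library stayed under the lowest Egr2WT library of the whole series of times. The mean was 3.49-fold lower in Egr2MKO at basal (log2 -1.69, SE 0.13, adjusted p = 5.5e-06), 3.48-fold at 1 hour, 4.44-fold at 6 hours and 4.61-fold at 24 hours (log2 -2.13, adjusted p = 1.2e-07). Both genotypes raised Ccr1 at 24 hours, by 1.18 (adjusted p = 1.9e-05) in Egr2WT and 0.74 (adjusted p = 0.00089) in Egr2MKO. The difference between these responses, -0.44, did not pass (adjusted p = 0.14), but passed with a pseudocount of 5 TPM (-0.53, adjusted p = 0.023).

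Cxcr4 was 101 and 104 TPM in basal Egr2WT and 223 and 225 in Egr2MKO. It was 42.0 and 45.9 against 73.8 and 82.4 TPM at 1 hour, and 55.4 and 57.6 against 153 and 158 TPM at 6 hours. At 24 hours it was 51.7 and 52.8 against 172 and 177 TPM. Again no libraries overlapped between genotypes at any time. Cxcr4 was 2.18-fold higher in Egr2MKO at basal (log2 1.12, SE 0.06, adjusted p = 1.6e-07), 1.78-fold at 1 hour, 2.75-fold at 6 hours and 3.35-fold at 24 hours (log2 1.72, adjusted p = 1e-09). IL-4 lowered it in Egr2WT, with changes of -1.21, -0.85 and -0.96 at 1, 6 and 24 hours, and in Egr2MKO, with changes of -1.51, -0.52 and -0.36. The response at 24 hours differed between genotypes by 0.61 (SE 0.08, adjusted p = 0.0004), the only one of the 12 response differences of the receptors that passed with a pseudocount of 1 TPM and the deposited scaling. That of Cx3cr1 at 24 hours, 0.28, passed with a pseudocount of 5 TPM (0.36, adjusted p = 0.012) and with quantile normalization (0.49, adjusted p = 0.038).

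Ccr2 and Cx3cr1 were lower in Egr2MKO before IL-4 and at 1 hour. Ccr2 was 32.0 and 38.3 TPM in basal Egr2WT and 24.0 and 24.1 in Egr2MKO (log2 -0.52, adjusted p = 0.006, and -0.40, adjusted p = 0.066, without Egr2WT replicate 2), and 13.8 and 15.9 against 7.1 and 8.37 TPM at 6 hours (-0.86, adjusted p = 0.00013). At 24 hours the genotypes were close, with 9.08 and 9.51 against 7.62 and 8.75 TPM (-0.17, adjusted p = 0.23, and -0.29, adjusted p = 0.048, with median-ratio scaling). Cx3cr1 was 31.8 and 32.4 TPM in basal Egr2WT and 22.6 and 23.7 in Egr2MKO (-0.46, adjusted p = 0.02), a difference that did not pass without any 1 of these 4 libraries (adjusted p = 0.088 to 0.14). At 1 hour the difference of -0.55 (adjusted p = 0.0077) did not pass without replicate 1 of Egr2MKO (adjusted p = 0.064) or of Egr2WT (adjusted p = 0.073). It was 1.67 and 2.1 against 1.58 and 1.76 TPM at 6 hours, where the libraries overlapped, and at most 0.372 TPM in either genotype at 24 hours. Within a genotype, IL-4 lowered Ccr2 at 6 and 24 hours, by log2 changes of -1.19 and -1.81 in Egr2WT and -1.52 and -1.45 in Egr2MKO. It lowered Cx3cr1 at these times as well, with -3.52 and -4.64 in Egr2WT and -3.17 and -4.35 in Egr2MKO. At 1 hour mean Cx3cr1 was 22.8 against 32.1 TPM at basal in Egr2WT and 15.3 against 23.1 TPM in Egr2MKO. Both of these changes passed at under 2-fold, but neither did without any 1 of its 4 libraries (adjusted p = 0.073 to 0.29). The receptors called in response to IL-4 at 1, 6 and 24 hours were 1, 2 and 3 in Egr2WT, against 0.778%, 2.86% and 4.35% of genes, and 1, 2 and 2 in Egr2MKO, against 0.902%, 3.70% and 4.83%.

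Monocyte genes summed to 104 TPM in basal Egr2WT and 87.6 to 89.3 in Egr2MKO, and to 41.4 to 42.4 and 36.7 to 38.4 TPM at 24 hours. Neutrophil and precursor markers were 192 to 205 against 164 to 168 TPM at basal and 118 to 122 against 52.3 to 54.8 TPM at 24 hours. Macrophage markers were 3959 to 4039 TPM in Egr2WT and 5153 to 5303 TPM in Egr2MKO at 24 hours. The part of these sums in the receptor differences was not tested.

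**Figure D4:**
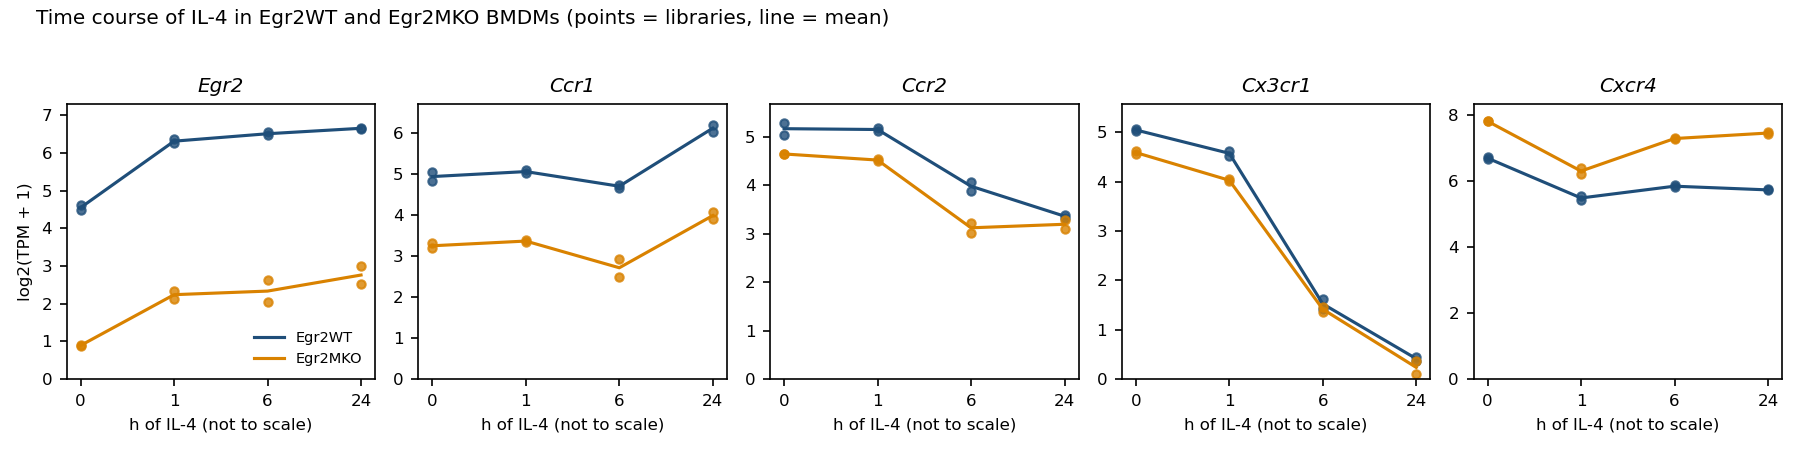
Level of Egr2 and of each receptor as log2(TPM + 1) in Egr2WT (blue) and Egr2MKO (orange) BMDMs at basal (0) and at 1, 6 and 24 hours of IL-4, with time not to scale. Points are libraries and lines join the means. Ccr1 was lower and Cxcr4 higher in Egr2MKO at every time without overlap, and Cx3cr1 declined in both genotypes.

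In F1 macrophages both alleles share 1 nucleus, so that an allelic difference bears on sequence linked to the gene. Reads were split by allele and each allele column was scaled by the authors on its own, so values are ratios on an arbitrary scale, and with 2 libraries a condition they were not tested. In the C57 and SPRET cross, Ccr1 was 57.3 and 62.7 from the C57 allele against 30.1 and 28.2 from the SPRET allele at basal, a mean log2 ratio of 1.02 (0.91 and 1.13). After IL-4 it was 69.3 and 67.6 against 23.6 and 42.0, a ratio of 1.10 (0.67 and 1.52). The C57 allele was the higher in all 4 libraries. The parents differed in the same direction by 1.50 at basal in the strain experiment and 2.37 in the time course. Cxcr4 gave the other pattern. Its basal alleles were 669 and 571 from C57 against 688 and 569 from SPRET, a ratio of -0.02, while the parents differed by -0.89 and -0.96. After IL-4 the ratios were 0.31 and -0.22, on either side of 0.

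Ccr2 and Cx3cr1 were both higher from the C57 allele at basal in that cross. Ccr2 was 56.5 and 50.5 against 40.8 and 35.3 (log2 ratio 0.48), and Cx3cr1 was 43.6 and 43.0 against 18.4 and 19.3 (1.16). The parents do not give 1 direction to set beside these values, with Ccr2 at 1.51 in the strain experiment and -1.83 in the time course and Cx3cr1 at 0.44 and -3.17. After IL-4 both alleles of Ccr2 declined, to 13.5 and 10.3 against 10.6 and 7.77, and both alleles of Cx3cr1 went to 0.575 or less. In the C57 and NOD cross, Ccr1 and Cx3cr1 were listed at 0 for both alleles in every library, and 78.9% to 83.6% of all genes were at 0 there. Allele values rest on reads over sites that differ between the parents, so a 0 on both alleles does not show absent expression. Both parents expressed Ccr1 in the strain experiment. Ccr2 was 115 and 143 from C57 against 71.0 and 91.3 from NOD at basal (0.67, with the parents at 1.77), and its 2 libraries disagreed in direction after IL-4 (1.47 and -0.20). Cxcr4 was higher from the NOD allele, at 396 and 366 against 257 and 253 (-0.58, with the parents at -0.08) and at 316 and 280 against 253 and 167 after IL-4 (-0.53, with the parents also at -0.53). The basal parental value depended on scaling. With median-ratio scaling the NOD parent exceeded C57 by 0.47 at basal (limma adjusted p = 1.8e-08), the direction of the F1 alleles. The median log2 ratio over all genes with at least 1 on both alleles was -0.06 to 0.01 in the crosses.

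**Figure D5:**
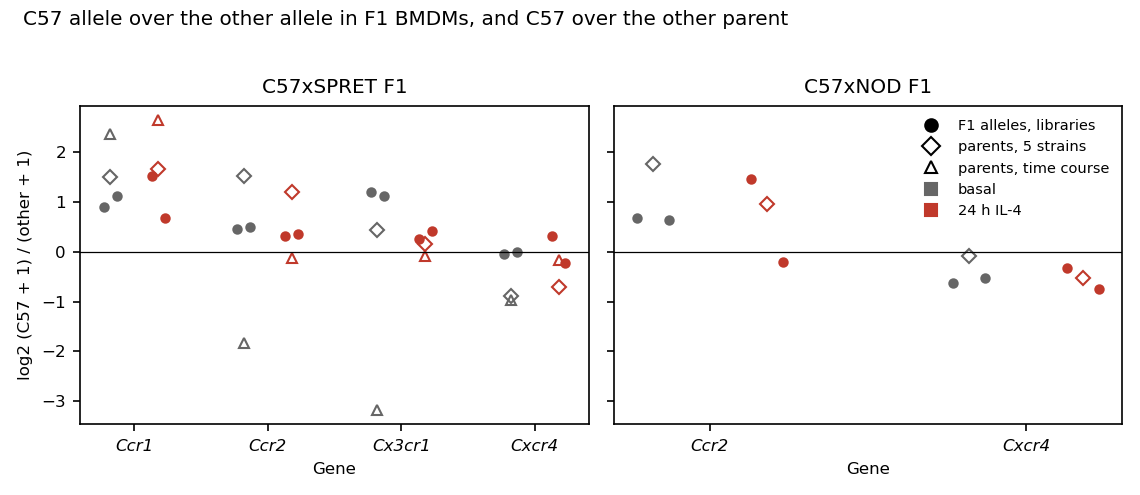
Log2 ratio of the C57 to the other allele in each F1 library (filled points), with 1 added to both, for the receptors with values above 0, beside the difference of the parental strains (open diamonds for the strain experiment and triangles for the time course), at basal (grey) and 24 hours of IL-4 (red). Ccr1 in the SPRET cross lay above 0 in all 4 libraries, and basal Cxcr4 lay near 0 although the parents differed by -0.89.

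The ligands and partners of the receptors were described from fixed lists. In C57 BMDMs at 24 hours, 6 of 10 ligand genes tested of 12 were called higher and 0 lower, with a median change of 2.14 against -0.04 for all genes. Ccl7, shared by Ccr1 and Ccr2, went from 6.12 to 307 TPM (5.43), Ccl8 from 60.3 to 1154 TPM (4.23), Ccl2 from 7.73 to 106 TPM (3.65) and Ccl12 from 3.11 to 95.8 TPM (4.57). Ccl6 and Ccl9 rose by 2.02 and 2.26. Ccl3 changed by -0.92, Ccl5 by -0.45 and Ccl4 by 0.31, all passing and all under 2-fold, and Mif changed by -0.07 (adjusted p = 0.45). Cxcl12 and Cx3cl1, the ligands of Cxcr4 and Cx3cr1, did not pass the filter in the strain experiment and had at most 0.291 and 1.34 TPM in any group of the 3 tables. Ligands called higher and lower numbered 6 and 0 in SPRET, 6 and 1 in BALB, 4 and 1 in PWK and 2 and 2 in NOD.

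Of 24 genes of receptor signalling and desensitisation, all tested, 1 was called in C57, the G protein regulator Rgs1, which went from 27.6 to 59.5 TPM (1.08), and the list median was -0.18. For this list and the next ones, the share of all genes called in C57 was 3.80%. Of the remaining lists, 2 of 5 neutrophil and precursor markers tested were called lower (S100a8, -2.67, and S100a9, -1.67), none of 1 T and B cell, 2 dendritic cell, 1 mast cell and basophil and 3 fibroblast markers tested was called, and no red cell marker passed the filter. In Egr2MKO against Egr2WT at basal, where Ccr1 and Cxcr4 were called, none of 10 ligands, 6 other receptors, 24 signalling genes and 8 monocyte genes was. Only 0.853% of all genes were called there, so lists of this size would seldom hold a call. At 24 hours, where 4.55% of all genes were called, 6 ligands were called higher and 1 lower in Egr2MKO. Ccl8 was at 961 against 140 TPM (2.77) and Ccl6 at 157 against 453 TPM (-1.52).

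Genes whose group means followed each receptor most closely over the 10 groups of the strain experiment were found by Pearson r of log2(TPM + 1), among 7726 genes whose means spanned at least 1. These values are a description over groups that share libraries and strains. For Ccr1 they were Glipr2 (r = 0.955), Usp4 (0.917) and Gnpnat1 (0.913), and for Ccr2 Mcl1 (0.982), Prtn3 (0.978) and Nisch (0.972). For Cx3cr1 they were Enc1 (0.917), Mir3473e (0.913) and Sorl1 (0.887), and for Cxcr4 Ugt1a7c (0.937), Ugt1a6a (0.935) and Ugt1a9 (0.935), overlapping genes that share exons and so reads. No receptor was among the 3 closest genes of another. Among themselves, r was 0.69 for Ccr1 and Ccr2, 0.57 for Cx3cr1 and Cxcr4, 0.52 for Ccr2 and Cx3cr1, -0.16 for Ccr1 and Cx3cr1, -0.19 for Ccr2 and Cxcr4 and -0.66 for Ccr1 and Cxcr4.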

How the data were processed

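RNA-seq libraries of mouse BMDMs were aligned by the authors with STAR to the genome of each strain, shifted to mm10 with MMARGE and quantified over exons with HOMER, and the deposited values are TPM. The strand setting and the handling of reads matching more than 1 place are not given in the sources used here. For F1 mice the authors multiplied counts by the allele ratio of reads over mutations and by 10, then scaled each allele column to TPM. The deposited fold changes and p-values of the authors' DESeq2 comparisons were not used. A human table was not analysed here.

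Tables were read with pandas 2.3.3. Genes reaching 1 TPM in 2 or more libraries of a table entered limma 3.58.1 (R 4.3.3) on log2(TPM + 1), with 1 mean per group, a mean-variance trend, all libraries of a table in 1 fit and Benjamini-Hochberg adjustment over 11907 (strains), 12088 (time course) or 12079 (Egr2) genes. The script was tested on simulated data. Nothing in the labels says that replicates came from separate animals, so p-values measure the spread between these libraries. The TPM tables hold no counts, and depth was taken from the tag totals in the file headers. Genes named beside the 4 receptors were those with the largest called rise and fall of each list in C57, receptor genes next to Ccr1 and Ccr2, ligands with a mean of at least 10 TPM in a group and the 3 genes closest to each receptor by Pearson r. Other genes named were chosen after their values were seen, and some genes that the rule covers are not reported here. The receptors and lists were chosen with earlier results of these data known. Alternatives were other pseudocounts, filters, scalings, priors, sample sets, a replicate block and leaving out each replicate.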

Additional observations from a re-analysis of the deposited data

Results flagged for a closer look

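Responses to IL-4 that differed between groups by a test of the difference are given here with limma's log2 difference. After 24 hours in the strain experiment, BALB minus C57 was -0.66 for Ccr1 and 0.97 for Cx3cr1. NOD minus C57 was -0.43 for Ccr1, 0.81 for Ccr2, 2.14 for Cx3cr1 and 0.45 for Cxcr4. PWK minus C57 was 0.47 for Ccr1, 0.65 for Ccr2 and -1.05 for Cx3cr1. These comparisons share the C57 libraries. A fall on the log2(TPM + 1) scale is limited by the basal level, which averaged 0.074 TPM for Ccr2 and 0.485 TPM for Cx3cr1 in NOD. The differences of these 2 genes were therefore in part set by basal levels.

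In the time course, SPRET minus C57 was -0.39 for Cxcr4 at 1 hour. At 6 hours it was -0.84 for Ccr1, -1.60 for Ccr2, -2.76 for Cx3cr1 and 0.77 for Cxcr4, and at 24 hours -1.71 for Ccr2, -3.08 for Cx3cr1 and -0.79 for Cxcr4. Basal means were 0.87 TPM of Ccr2 and 2.39 of Cx3cr1 in C57, against 5.63 and 29.5 TPM in SPRET. C57 thus had less room to fall in these 2 genes, and their response differences were in part set by basal levels. Egr2MKO minus Egr2WT was 0.61 for Cxcr4 at 24 hours.

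The basal difference of SPRET from C57 had opposite signs in the 2 experiments, with Ccr2 at -1.51 among the strains and 1.83 in the time course and Cx3cr1 at -0.44 and 3.17. All SPRET libraries lay below all C57 libraries in the first and above them in the second, and the difference between experiments was not tested.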

How the results depend on the processing

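Over 172 results of the 4 receptors, 2411 of 2543 alternative values kept their direction and side of the threshold, 71 lost the threshold, 37 gained it and 24 changed sign. None of the results that changed sign had passed. Fitting only the groups compared lost 10 passing results, where fewer libraries estimate the spread. With the replicate block, Cx3cr1 at 1 hour in Egr2WT no longer passed (adjusted p = 0.065), and no other result changed its side of the threshold. The replicate numbers did not pair libraries, with a mean residual r of 0.013 (strains), 0.030 (time course) and -0.0046 (Egr2). With a pseudocount of 5 TPM, counts of called receptors went from 7 to 3 for strain responses, 6 to 3 for basal levels, 10 to 6 for time course responses and 9 to 7 for SPRET minus C57. With 0.1 TPM they went from 7 to 10 for strain responses and 6 to 7 for basal levels, and with the filter at 5 TPM from 6 to 4 for basal levels. No other setting moved a count.

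With a pseudocount of 0.1 TPM, signs changed for the SPRET minus C57 response of Ccr2 (-0.35) and Cx3cr1 (-0.30), and for the Egr2MKO minus Egr2WT response of Ccr1 at 1 hour (0.0019) and Cx3cr1 at 24 hours (-0.25). The Ccr2 response of PWK was -0.020 with median-ratio scaling and -0.040 with quantile normalization, the Cxcr4 response of PWK minus C57 was -0.030 with median-ratio scaling, and Cx3cr1 in Egr2MKO minus Egr2WT at 24 hours was 0.016 with quantile normalization. Scaling also moved the split of higher and lower calls for NOD minus C57 at basal from 613 and 1398 to 1095 and 735, and for PWK minus C57 from 535 and 1049 to 698 and 796. The cause was not tested.

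Leaving out 1 replicate gave ranges across 0 for basal PWK minus C57 in Ccr1 (-0.11 to 0.11) and Ccr2 (-0.026 to 0.12), for Ccr2 in C57 at 6 hours (-0.14 to 0.16), in SPRET at 1 hour (-0.23 to 0.0046), in SPRET minus C57 at 24 hours (-0.089 to 0.34) and in Egr2WT at 1 hour (-0.14 to 0.11), for Cx3cr1 in SPRET minus C57 at 24 hours (-0.037 to 0.22) and for the Egr2MKO minus Egr2WT response at 1 hour in Ccr1 (-0.12 to 0.10) and Ccr2 (-0.23 to 0.016). F1 ratios in the SPRET cross with 0.1 or 5 added were 0.37 and 0.25 for Ccr2 and 0.99 and 0.085 for Cx3cr1 after IL-4, and with 5 added 0.44 and 1.02 at basal. The filter at 5 TPM left no value for Ccr2 in the strains. Depth limits values under 1 TPM, which hold few reads.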
